A study of Homo sapiens with 6 samples.

Results

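The human genes whose symbols begin with UBE2 encode the ubiquitin-conjugating (E2) enzymes and their catalytically inactive relatives. Every symbol of this form was taken from both deposited tables of a ribosome profiling experiment, without regard to any value. This gave 31 of the 10779 genes listed in either table. Translational efficiency was given for 29 of them and codon-by-codon ribosome occupancy for 30, and 28 had both. UBE2D4 and UBE2F had occupancy only. UBE2F-SCLY had translational efficiency only. It is a readthrough gene that joins UBE2F to its neighbour SCLY and is annotated apart from UBE2F, and it was kept because its symbol matches.

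Ribosome profiling sequences ribosome-protected fragments of mRNA (RPFs) left after nuclease digestion and so maps where ribosomes stood. HEK293 cells, an established human embryonic kidney line, were profiled with 3 RPF libraries and 3 total RNA libraries taken from the same lysates. All libraries are labelled as cells given a control siRNA and were exposed to cycloheximide at 100 µg/ml, which holds ribosomes on the mRNA, so there is 1 condition and no contrast between treatments. The label does not say whether the replicates were separate cultures, and p-values then measure the spread between these samples. Of 9 genes fixed as markers of the line, 8 were listed in the tables, against 0 of 3 blood cell markers and 0 of 2 hepatocyte markers.

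E2 enzymes take activated ubiquitin, or a ubiquitin-like protein, from an E1 enzyme and pass it with the help of an E3 ligase to a substrate. The E2 largely sets which kind of ubiquitin chain is built, and with it whether a protein is degraded by the proteasome, recruited to DNA repair or used in signalling. Many E2s come as close paralogs, among them the UBE2D and UBE2E groups that work with a broad range of RING ligases, the RAD6 pair UBE2A and UBE2B, and the UBE2V cofactors that lack a catalytic cysteine and act bound to UBE2N.

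The results on ribosome position turn on a few codons, which are shown first. Each line gives the 27 nt around a codon, 5′ to 3′ on the mRNA in DNA letters, with the named codon in capitals. The sequences come from GENCODE 44 on GRCh37, the build of hg19. The marked codons lie in the CDS. UBE2D1, UBE2D2 and UBE2D3 are shown at their aligned codon 139, and UBE2Q1 at the codon aligned with codon 309 of UBE2Q2. The highest codon was 141 in UBE2D1, 132 in UBE2D3 and 393 in UBE2Q1.
UBE2D1 codon 139: aacagacatgcaAGAgaatggactcag
UBE2D2 codon 139: aacagaatagctCGGgaatggactcag
UBE2D3 codon 139: aacagaatatctCGGgaatggactcag
UBE2E1 codon 144: tatatgaccaacAGAgcagaacatgac
UBE2E3 codon 191: tatttgaccaacAGAgcagaacacgac
UBE2Q1 codon 356: atggaacttctcACCaaacagggctgg
UBE2Q2 codon 309: atggaacttctcACAaaacagggctgg
UBE2L3 codon 101: tactctaaggacCGTaaaaaattctgt
UBE2B codon 43: gttatatttggaCCAgaagggacacct

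On the plus strand these windows lie at chr10:60128484-60128510 (UBE2D1), chr5:139006345-139006371 (UBE2D2), chr3:23932032-23932058 (UBE2E1), chr2:181927550-181927576 (UBE2E3), chr15:76182804-76183265 (UBE2Q2), chr22:21975878-21975904 (UBE2L3) and chr5:133710144-133712375 (UBE2B). On the minus strand they lie at chr4:103718587-103718613 (UBE2D3) and at chr1:154523963-154524267 (UBE2Q1). The windows of UBE2Q1, UBE2Q2 and UBE2B span an exon junction, so their coordinates enclose an intron.

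Translational efficiency, how many RPFs a gene has for its total RNA, lay above the median of all genes in most of the family. The median of the 29 UBE2 genes was 1.03, compared with 0.385 for all 8121 genes. Each gene was tested against the median of all values with limma on log2(value + 0.01), with Benjamini-Hochberg adjustment over all genes. Of all genes, 89.3% passed an FDR of 0.05, 44.7% above the median and 44.6% below it. Of the UBE2 genes, 27 of 29 passed, 24 of them above the median and 3 below it. A call in itself is therefore the common result in this table. The middle 50% of the UBE2 genes lay between 0.654 and 1.69, and that of all genes between 0.198 and 0.825.

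**Figure D1:**
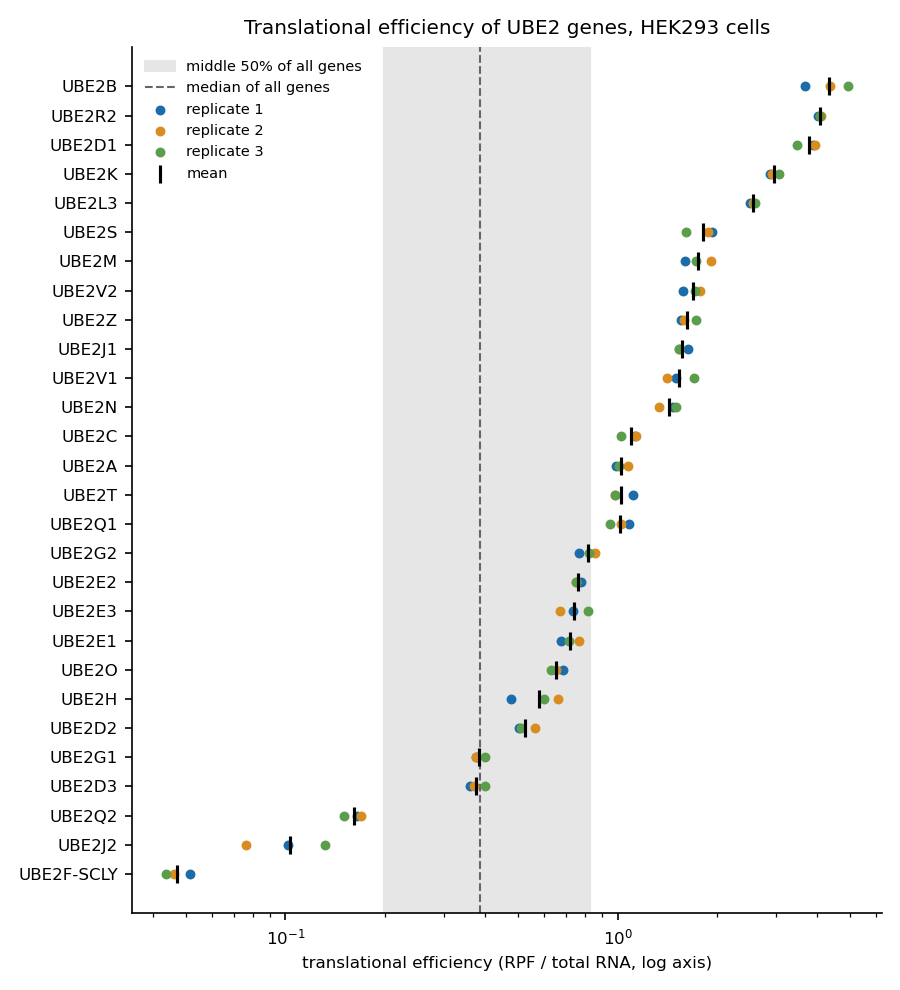
Translational efficiency (horizontal, log axis, RPF to total RNA) of 28 UBE2 genes in each of 3 replicates (points) with the mean (black bar), ordered by the mean. The dashed line marks the median of all genes, 0.385, and the grey band their middle 50%; UBE2G1 and UBE2D3 sit on the line, 23 genes lie to its right, and UBE2Q2, UBE2J2 and UBE2F-SCLY lie to its left.

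The highest value was that of UBE2B, a RAD6 homolog that ubiquitinates histone H2B and PCNA, with 3.67, 4.38 and 4.94 in replicates 1 to 3. UBE2R2, an E2 of the cullin-RING ligases, followed with 4.03, 4.10 and 4.06. These overlapped, and UBE2R2 had the smaller spread, with an SD of 0.0127 on the log2 scale against 0.216 for UBE2B. UBE2D1, one of the broadly acting UBE2D enzymes, had 3.89, 3.93 and 3.47. UBE2K, which builds the chains read by the proteasome, had 2.89, 2.93 and 3.07, and UBE2L3, which serves HECT and RBR ligases such as parkin, had 2.51, 2.55 and 2.59. UBE2R2, UBE2D1, UBE2K, UBE2L3 and the next gene in order were separated by gaps that no replicate crossed. UBE2B exceeded the median of all genes by 3.45 on the log2(value + 0.01) scale (SE 0.0933, limma adjusted p = 3.37e-06), and UBE2L3 by 2.70 (SE 0.0479, limma adjusted p = 1.43e-06).

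At the other end, the readthrough gene UBE2F-SCLY had 0.0514, 0.0462 and 0.0438. It shares sequence with the CDS of UBE2F, which had no efficiency value, and the part of this in its value was not tested. UBE2J2, an E2 anchored in the membrane of the endoplasmic reticulum that serves in the degradation of misfolded proteins, had 0.101, 0.0761 and 0.131, the widest spread in the family (SD 0.357 on the log2 scale). UBE2Q2 had 0.165, 0.169 and 0.150. Their differences from the median of all genes on the log2(value + 0.01) scale were -2.78, -1.83 and -1.20, with limma adjusted p of 1.91e-06, 0.000117 and 1.88e-05. UBE2G1, an E2 of proteasomal chains, had 0.374, 0.375 and 0.398, and UBE2D3 had 0.358, 0.370 and 0.398. Neither passed the test, with limma adjusted p of 0.943 and 0.624.

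UBE2M, which conjugates NEDD8 to cullins, had a translational efficiency of 1.74 ± 0.155 (SD, n = 3). UBE2Z, which takes ubiquitin or FAT10 from UBA6, had 1.62 ± 0.0901 (SD, n = 3). Their replicates overlapped. UBE2T, the E2 of the Fanconi anaemia pathway, had 1.03 ± 0.0765 (SD, n = 3). UBE2O, a large enzyme that also acts as its own ligase, had 0.654 ± 0.0280 (SD, n = 3), and UBE2H, the E2 of the CTLH ligase, had 0.579 ± 0.0931 (SD, n = 3). Over the whole order, 10 of the 28 neighbouring pairs of genes had replicates that did not overlap.

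Some paralogs lay far apart in translational efficiency and others overlapped. Replicates did not overlap in 7 of 11 pairs of paralogs and in 2 of 3 pairs of partners. Of all possible pairs of genes, 90.2% did not overlap, so a lack of overlap is the common result and is not particular to these pairs. The exact permutation test (two-sided) of the 3 values of one gene against the 3 of the other cannot give a p below 0.1, which it gave for these 9 of 14 pairs. Each difference is given with the SD of the 3 differences within replicates.

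UBE2A, the other RAD6 homolog, had 0.992, 1.08 and 1.01, and UBE2B exceeded it by 2.06 ± 0.203 on the log2 scale (SD, n = 3), or 4.16-fold. In the UBE2D group the order was UBE2D1, UBE2D2, UBE2D3. UBE2D2 had 0.505, 0.562 and 0.511, and UBE2D1 exceeded it by 2.81 ± 0.0960 (SD, n = 3), or 7.03-fold. UBE2D1 exceeded UBE2D3 9.78-fold. UBE2D2 lay above UBE2D3 by 0.48 ± 0.120 (SD, n = 3), with no overlap. The 3 enzymes have 148 codons each and at least 78.4% of their CDS nucleotides in common, and the CDS of UBE2D2 and UBE2D3 were 86.5% identical.

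The widest gap was between the membrane-bound enzymes. UBE2J1 had 1.63, 1.53 and 1.53, which is 14.2-fold above UBE2J2, or 3.83 ± 0.360 on the log2 scale (SD, n = 3). UBE2Q1 had 1.08, 1.02 and 0.950 and exceeded UBE2Q2 by 2.58 ± 0.0615 (SD, n = 3). UBE2G2, the E2 of ER-associated degradation with the ligase gp78, had 0.768, 0.857 and 0.820 and exceeded UBE2G1 by 1.07 ± 0.0866 on the log2 scale (SD, n = 3). All 3 replicates gave the same direction in each of these pairs.

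The UBE2E enzymes overlapped. UBE2E1 had 0.674, 0.767 and 0.713, UBE2E2 had 0.776, 0.752 and 0.751, and UBE2E3 had 0.732, 0.671 and 0.814. Their largest difference was 0.08 ± 0.115 on the log2 scale (SD, n = 3), and all 3 pairs overlapped. UBE2N, which builds the non-degradative chains of NF-κB signalling and DNA damage tolerance, had 1.47, 1.33 and 1.499. Its cofactors UBE2V1 (1.496, 1.40 and 1.71) and UBE2V2 (1.58, 1.77 and 1.71) lay close to it. UBE2V2 exceeded UBE2N by 0.23 ± 0.157 (SD, n = 3) without overlap, and UBE2V1 overlapped both. UBE2C and UBE2S start and extend chains on targets of the anaphase-promoting complex in mitosis. UBE2C had 1.13, 1.14 and 1.03, and UBE2S had 1.93, 1.88 and 1.61, higher by 0.71 ± 0.0620 (SD, n = 3).

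The other genes of the pathway were read in the same fit. Of 8 E2 enzymes and E2 variants with other names, 7 were in the table, 3 above the median, 3 below it and 1 not passing the test, with a median efficiency of 0.366. CDC34, the close relative of UBE2R2, was the lowest with 0.148 ± 0.00819 (SD, n = 3), and UFC1, the E2 of UFM1, the highest with 2.16 ± 0.117 (SD, n = 3).

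Of 9 E1 enzymes 8 were listed, 5 above and 2 below, with a median of 0.698. ATG7 was the lowest with 0.123 ± 0.0165 (SD, n = 3), and UBA6, the E1 of UBE2Z, the highest with 1.35 ± 0.0265 (SD, n = 3). Of the NEDD8 E1 that serves UBE2M, NAE1 had 0.676 ± 0.109 and UBA3 had 0.303 ± 0.0194 (SD, n = 3).

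Of 10 ubiquitin and ubiquitin-like precursor genes 8 were listed, 7 above and 1 below, with a median of 0.973. SUMO2, a ubiquitin-like modifier, was the highest with 16.6 ± 0.607 (SD, n = 3). Of 16 subunits and activators of the anaphase-promoting complex, which UBE2C and UBE2S serve, 14 were listed, 7 above and 5 below, with a median of 0.479. They ranged from ANAPC15 with 0.0964 ± 0.0254 (SD, n = 3) to CDC26 with 11.5 ± 0.353 (SD, n = 3).

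Occupancy was deposited per codon, as in-frame RPFs normalised to library size, divided by the mRNA's abundance (TPM) and combined over replicates. Each value of a UBE2 mRNA proved to be a sum of whole multiples of 3 numbers, the worth of 1 read in each replicate. For all 30 UBE2 mRNAs every codon resolved into whole reads in 3 sets, 1 for each replicate. The sets were not assigned to replicate numbers, and their lowest and highest values are given in place of an SD. The 30 mRNAs held 225532 reads, from 119 on UBE2D4 to 18980 on UBE2D3, of which 98.5% lay in the CDS. Values of UBE2D4 are the least precise, since they rest on the fewest reads.

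Mean occupancy of the CDS was above the median of all 9570 transcripts in 26 of 30 UBE2 mRNAs. Their median was 0.139 per codon, compared with 0.0450 for all transcripts. UBE2B was again the highest with 0.767, followed by UBE2V1 with 0.645 and UBE2K with 0.346. The lowest were UBE2S with 0.0185, UBE2D4 with 0.0264 and UBE2Q2 with 0.0313. The sets of UBE2B contributed 0.280, 0.274 and 0.213 to its value, and those of UBE2V1 contributed 0.242, 0.192 and 0.212. Over the 30 mRNAs the coefficient of variation between sets had a median of 4.90% and reached 14.3%, in UBE2B.

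Other members lay between these. Mean CDS occupancy was 0.265 for UBE2D1, 0.247 for UBE2R2, 0.231 for UBE2A, 0.211 for UBE2V2 and 0.209 for UBE2D2. UBE2F, which conjugates NEDD8 to the cullin CUL5, had 0.0485, next to UBE2J2 with 0.0479. Of the 30-mers in the CDS of UBE2F, 92.6% occur in another annotated gene, UBE2F-SCLY among them. The same share was 68.7% in UBE2D3, 54.2% in UBE2N, 45.9% in UBE2M and 43.7% in UBE2E3. Counting only protein-coding transcripts of other genes, the share was 12.3% in UBE2D3 and 0 in UBE2F, UBE2N, UBE2M and UBE2E3. The part of shared sequence in their efficiency and occupancy was not tested.

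The abundance by which occupancy was divided can be read from the worth of a read. The UBE2 mRNAs had a median abundance of 2.34 times the median transcript, and 24 of 30 lay above it. UBE2S was the most abundant with 32.4 times the median transcript, followed by UBE2C with 10.1 and UBE2D3 with 8.36. UBE2D4 with 0.312, UBE2B with 0.486 and UBE2R2 with 0.583 were the least abundant. UBE2S thus had a high translational efficiency of 1.80 and the lowest occupancy of the family. Of the 30-mers in its CDS, 78.6% occur in 2 annotated pseudogenes, and the part of this in either value was not tested. Across the 28 mRNAs with both measures, the Spearman coefficient between translational efficiency and mean CDS occupancy was 0.391, and it was 0.688 across the 6912 genes of both tables. Both measures share the RPF libraries, and genes are not independent replicates.

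Ribosomes were unevenly spread along the UBE2 mRNAs. Each CDS was divided at its middle codon into a 5′ section and a 3′ section. The summed occupancy of the 3′ section was over 2 times that of the 5′ section in 13 of 30 mRNAs, compared with 10.4% of 9544 transcripts. The 5′ section held over 2 times the 3′ section in 3 of 30, compared with 9.6%. Short CDSs are more often uneven. Among the 2115 transcripts of at most 250 codons, 19.8% had the heavier 3′ section, compared with 11 of the 24 UBE2 mRNAs of that length. When each codon was limited to 10 times the median of the codons above 0, the number fell from 13 to 8, compared with 8.64% of all transcripts.

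The heaviest 3′ sections were those of UBE2D2 with 4.17 times the 5′ section (3.96 to 4.44 in the 3 sets), UBE2E1 with 3.999 times (3.73 to 4.32) and UBE2N with 3.91 times (3.32 to 4.39). UBE2D3 had 3.61, UBE2D1 3.52, UBE2R2 2.86, UBE2L3 2.43 and UBE2G2 2.40 times the 5′ section. Among the heaviest 5′ sections were those of UBE2H with 2.42 times the 3′ section (2.31 to 2.54) and UBE2V1 with 2.05 times (1.89 to 2.23). UBE2A and UBE2B, UBE2V1 and UBE2V2, and UBE2D1 to UBE2D3 each had the same heavier section. UBE2D4, with few reads, went the other way from UBE2D1 to UBE2D3, with 1.35 times the occupancy in its 5′ section. UBE2G1 had 1.34 times in its 5′ section, opposite to UBE2G2. UBE2E2, with 1.06, did not follow UBE2E1, and its sets fell on both sides of 1. UBE2Q1 had 2.05 times the occupancy in its 3′ section, and UBE2Q2 had 1.32 times in its 5′ section.

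**Figure D2:**
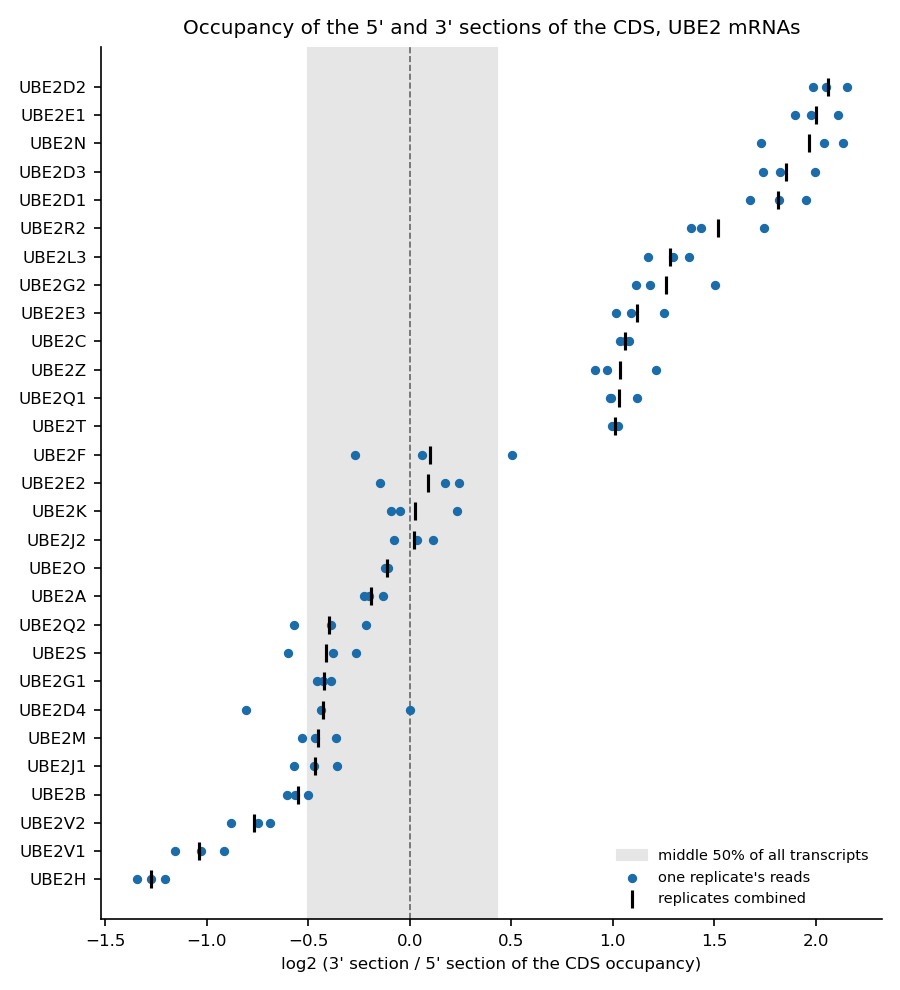
Log2 of the summed occupancy of the 3′ over the 5′ section of the CDS for 29 UBE2 mRNAs, with each replicate's own reads as a point and the combined value as a black bar. The grey band is the middle 50% of all transcripts; 13 mRNAs lie beyond 1 on the right, led by UBE2D2, and UBE2V1 and UBE2H lie beyond -1 on the left.

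In UBE2D1, UBE2D2 and UBE2D3 most of the occupancy lay at the very end of the CDS. The last 25 codons, stop codon included, held 55.7% of the CDS occupancy of UBE2D1 (54.6 to 56.3% in the 3 sets), 62.8% of UBE2D2 (62.2 to 63.2%) and 62.1% of UBE2D3 (61.0 to 63.4%). These codons make up 16.9% of the CDS. UBE2D4, with few reads, had 32.4% (25.0 to 42.3%). UBE2L3 had 54.8%, UBE2E3 44.2% and UBE2E1 39.1%. The median of 2121 transcripts of at most 250 codons was 13.1%, and 1.84% of them reached the share of UBE2D2. UBE2C had 6.13%, below that median.

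Single codons carried much of this. The highest codon held a median of 8.78% of the CDS occupancy in the UBE2 mRNAs, compared with 4.95% in all transcripts, whose CDSs are longer. The same codon was the highest in all 3 sets for 13 of 30 mRNAs. In UBE2L3, codon 101 (CGT) held 21.8% (20.1 to 22.7%), with 2198 reads. In UBE2D2, codon 139 (CGG) held 15.9% with 1612 reads, and codon 132 (GAA) held 13.7% with 1460 reads. In UBE2E3, codon 191 (AGA) held 13.6% (12.1 to 15.9%), in UBE2B, codon 43 (CCA) held 13.4% (10.96 to 14.8%), and in UBE2Q1, codon 393 (TAC) held 11.8% (11.1 to 13.04%).

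Several high codons fell at the same place in paralogs. UBE2D1 was high at codons 141, 139 and 132, and UBE2D3 at codons 132 and 139. UBE2E1 and UBE2E3 were each highest at the AGA codon 17 codons before the stop codon. UBE2E2 was highest at codon 181, 4 codons nearer the start in the same stretch, whose window atcgccacacagTACatgaccaacaga ends in the same AGA (chr3:23631245-23631271, plus strand). UBE2Q2 was highest at codon 309, which aligns with codon 356 of UBE2Q1. Aligned from the stop codon over the last 148 codons (145 for UBE2V1), the codon profiles of paralogs had Spearman coefficients of 0.639 for UBE2V1 and UBE2V2, 0.549 for UBE2E2 and UBE2E3, 0.513 for UBE2D2 and UBE2D3, 0.486 for UBE2A and UBE2B and 0.482 for UBE2Q1 and UBE2Q2. The 353 pairs from different groups, with UBE2D and UBE2E counted as 1 group, had a median of 0.0235, from -0.325 to 0.322. UBE2J1 and UBE2J2 with 0.175, and UBE2D4 with UBE2D1 to UBE2D3 at 0.182 to 0.298, lay within that range. Pairs of a UBE2D with a UBE2E mRNA, left out of the 353, ran from 0.0947 (UBE2D4 and UBE2E3) to 0.428 (UBE2D3 and UBE2E3).

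**Figure D3:**
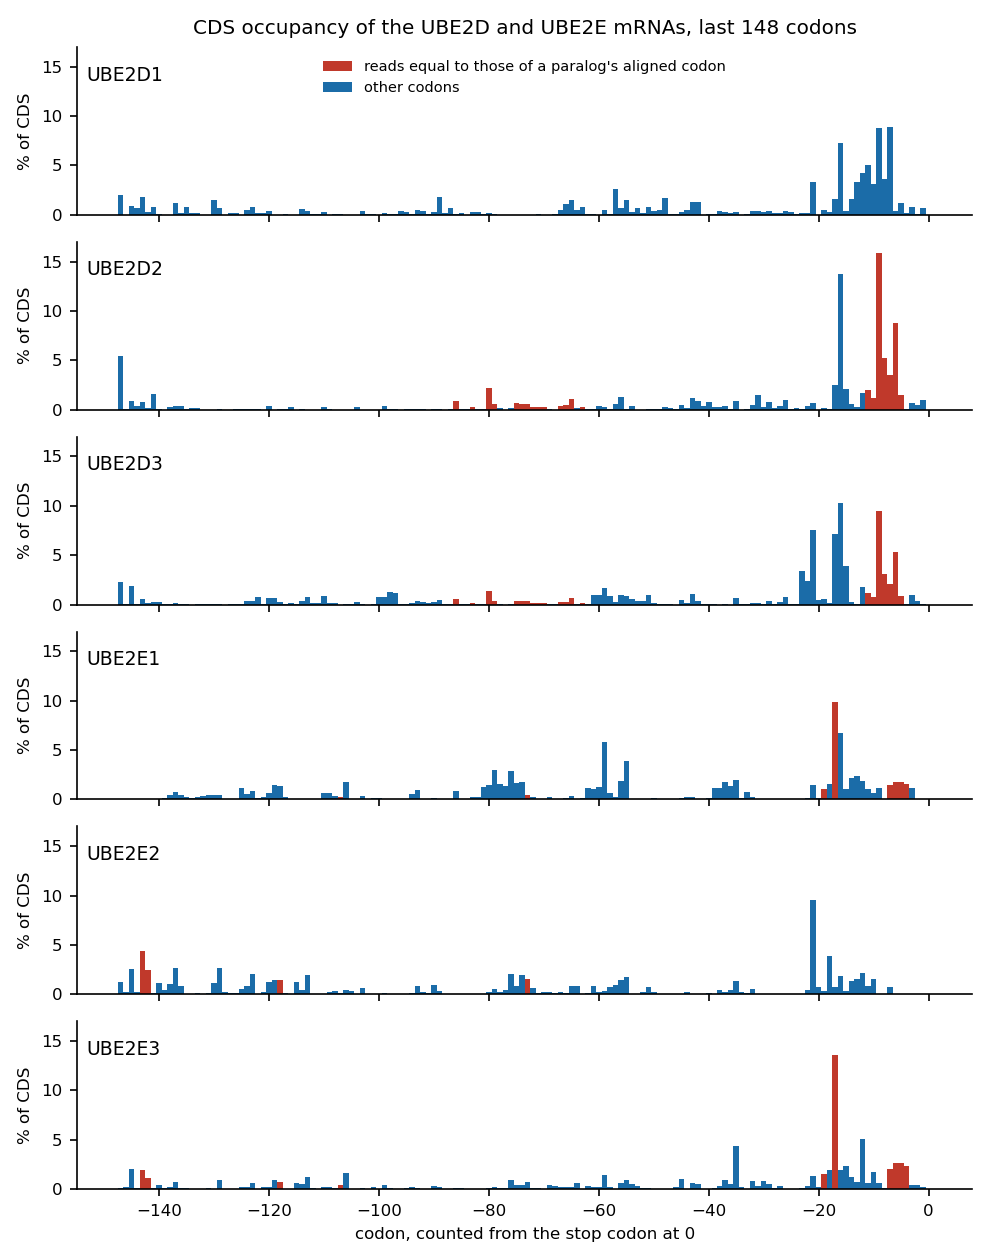
Percentage of the CDS occupancy at each of the last 148 codons of UBE2D1 to UBE2D3 and UBE2E1 to UBE2E3, aligned at the stop codon at 0. Red bars are codons of at least 20 reads whose reads in the 3 sets differed from those of a paralog's aligned codon by at most 10% in sum; in UBE2D2 and UBE2D3 they include codon 139, and in UBE2E1 and UBE2E3 the highest codon, 17 codons before the stop codon, while UBE2D1 has none.

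At part of these codons the numbers of reads were nearly equal on both mRNAs. At codon 139, UBE2D2 had 616, 581 and 415 reads in the 3 sets and UBE2D3 had 626, 580 and 416. At codon 68, both had 103, 97 and 39. At the AGA codon, UBE2E1 had 292, 346 and 182 reads and UBE2E3 had 286, 315 and 172. At codon 356, UBE2Q1 had 49, 26 and 34, and at codon 309, UBE2Q2 had 48, 26 and 34.

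Aligned codons of paralogs with at least 20 reads in both were sorted by the bases that differ within the 30 nt a read spans. UBE2V1 and UBE2V2 were left out of this sorting, since no annotated CDS was matched to UBE2V1. With 0 or 1 differing base, 18 of 18 codons had reads within 10% of each other, summed over the sets. With 2 differing bases it was 14 of 20, with 3 or 4 it was 1 of 60, and with 5 or more it was 1 of 142. Among 7451 aligned codons of unrelated UBE2 mRNAs it was 1.09%. Of the 18 codons with 0 or 1 differing base, 16 came from UBE2D2 and UBE2D3 and 2 from UBE2E1 and UBE2E3. Many of the 18 are neighbours, so the spans of their reads overlap. Near-equal reads thus went with near-identical sequence; whether the same reads were counted on both mRNAs was not tested, since the deposited values carry no reads. Codons with such equal reads between UBE2D2 and UBE2D3 held 46.5% and 27.7% of their CDS reads. Between UBE2E1 and UBE2E3 they held 17.5% and 25.3%, and between UBE2V1 and UBE2V2 15.6% and 15.2%. Between UBE2E2 and UBE2E3 they held 8.27% and 3.74%, and between UBE2Q1 and UBE2Q2 2.85% and 7.55%. The other pairs with such codons were UBE2E1 and UBE2E2 with 0.457% and 1.58%, and UBE2A and UBE2B with 1.175% and 1.197%.

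**Figure D4:**
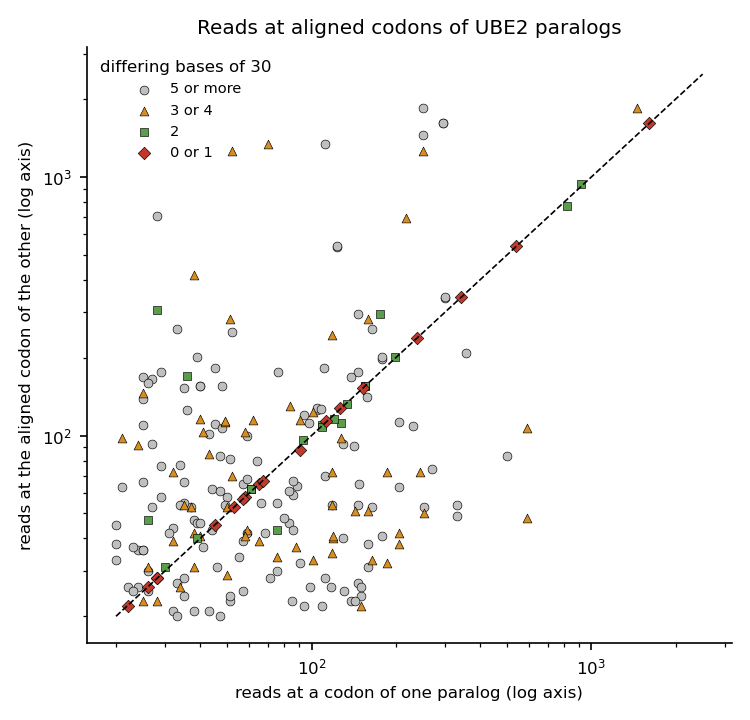
Reads at aligned codons of paralogous UBE2 mRNAs (both log axes), 1 point for each aligned codon with at least 20 reads in both, shaped by how many of the 30 bases a read spans differ. The points with 0 or 1 differing base lie on or near the dashed line of equal reads, as do 14 of 20 with 2, and those with 3 or more scatter to both sides.

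Profiles of paralogs were also compared where the spans differ. Over the codons whose spans differ by 5 bases or more, the Spearman coefficient was 0.476 for UBE2D1 and UBE2D2 (129 codons), 0.465 for UBE2A and UBE2B (120 codons), 0.391 for UBE2D1 and UBE2D3 (120 codons), 0.383 for UBE2E1 and UBE2E2 (111 codons), 0.338 for UBE2Q1 and UBE2Q2 (331 codons) and 0.297 for UBE2D2 and UBE2D3 (63 codons). It was 0.329 for UBE2E2 and UBE2E3 (146 codons) and 0.299 for UBE2E1 and UBE2E3 (117 codons). UBE2D4 had 0.155 to 0.275 with UBE2D1 to UBE2D3, and UBE2J1 and UBE2J2 had 0.1004. The coefficients of UBE2D2 with UBE2D3, of UBE2E1 with UBE2E3, of the UBE2D4 pairs and of UBE2J1 with UBE2J2 lay within the range of pairs from different groups. Left without the codons that differ by at most 2 bases from a paralog, UBE2D2 kept 3.16 times as much occupancy per codon in its 3′ section, UBE2D3 3.12 times and UBE2E1 3.53 times, and UBE2E3 went from 2.17 to 1.53 times. The highest codon of both UBE2D2 and UBE2D3 was then codon 132, where the mRNAs had 1460 and 1849 reads. This leaving out was chosen after the equal reads had been seen. Codon 101 of UBE2L3 lies in the only UBE2L gene of the tables, and 67.7% of the 30-mers of its CDS occur in other annotated genes. In protein-coding transcripts of other genes it was 39.1%.

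Occupancy on the 5′UTR was low in most members and high in a few. Over the last 17 codons before the AUG, in its frame, the median of 28 UBE2 mRNAs was 0.00294 per codon, compared with 0.00145 in 8536 transcripts. Among the highest were UBE2B with 0.0805, UBE2D3 with 0.0615, UBE2K with 0.0379 and UBE2T with 0.0190. The values of UBE2B and UBE2D3 rested largely on single codons. In UBE2B the codon 6 before the AUG held 19, 18 and 4 reads. The values depend on the window. Over the last 10 codons UBE2B had 0.131, UBE2K 0.0588 and UBE2T 0.0215, while UBE2D3, whose highest codon lies at the edge of the longer window, had 0.0299.

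UBE2D3 differed in that its 5′UTR held 7.65% of all its occupancy, the largest share in the family. The codon 17 before the AUG had 214, 163 and 124 reads, at 4.26 times the mean of the CDS. The codon 36 before the AUG was the next. The 5′UTR of the deposited transcript differs in length from those of the GENCODE transcripts of this CDS, so no sequence is given for these codons. UBE2G2, with 5.81%, had the next largest share of occupancy in its 5′UTR.

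**Figure D5:**
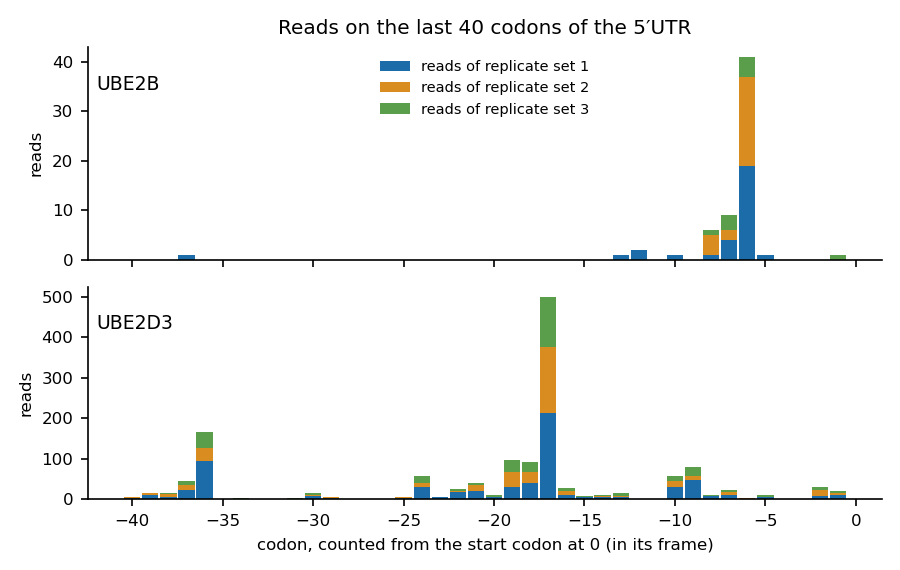
Reads on the last 40 codons of the 5′UTR of UBE2B and UBE2D3, in the frame of the start codon at 0, stacked by the 3 sets of reads, 1 for each replicate. UBE2B has its highest codon 6 codons before the AUG, and UBE2D3 its highest at 17 and the next at 36 codons before it.

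The 3′UTR held 216 of all reads on the 30 mRNAs. Its share of the summed occupancy was highest in UBE2D4 with 6.19%, which rests on 7 reads and was 0 in 1 set. UBE2G1 followed with 1.37% (1.12 to 1.58% in the 3 sets, 54 reads) and UBE2G2 with 1.05% (0.916 to 1.30%, 44 reads). UBE2F had 0.498% with 4 reads and UBE2J2 0.289% with 9 reads. The median of the UBE2 mRNAs was 0.0564%, compared with 0.0165% for all transcripts. The upper quartile went the other way, with 0.0792% compared with 0.159%, and the lower quartile was 0.0320% compared with 0. A median of 16.9% of CDS codons had no read in the UBE2 mRNAs, compared with 43.4% in all transcripts. The part of read depth in these shares was not tested.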

How the data were processed

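RPFs and total RNA of HEK293 cells were sequenced in 3 replicates each. Translational efficiency was deposited by the authors as a linear ratio, RPFs over total RNA, for each gene and replicate; its formula and depth are not stated in the sources used here. Occupancy was deposited as a signal per codon: in-frame reads of 28 to 30 nt placed with an offset of 13 nt on hg19 transcripts, normalised to library size and TPM, with replicates combined. The submitters' processing notes name Bowtie 1.1.2, HTSeq 0.9.1, TopHat2 2.1.1 and cutadapt 1.16. Reads were aligned to transcripts, so sequence shared between genes can carry reads of either.

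Here log2(value + 0.01) minus the median of all values was fitted with limma 3.58.1 in R 4.3.3, intercept only, over all 8121 genes with no filter. On simulated data the fit called 86% of 200 genes moved by 1 on the log2 scale among 8121, with 0 of wrong sign and 4 unmoved genes called. Whole reads of the 30 UBE2 mRNAs were recovered from the step sizes of each transcript. Step sizes were found for 9543 of 9570 transcripts (relative tolerance 1e-08), and for 300 of 300 simulated transcripts. The self-test recovered 99.99% of the codons of the simulated transcripts. Positions came from GENCODE 44 on GRCh37, where no CDS was matched for UBE2G2 and UBE2V1. UBE2 genes were named, with replicate values for the 5 highest, the 5 lowest, the paralogs and those not called; 1 member and 1 pathway gene, counted in the totals, are not reported here. Members and lists were chosen with earlier results of these data known. Alternatives were another pseudocount, a filter on low values, genes of both tables, a replicate block, leaving out each replicate, and other codon windows. Replicates of the ratio correlated with Pearson coefficients of 0.987 to 0.990 on the log2 scale across genes.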

Additional observations from a re-analysis of the deposited data

How the results depend on the processing

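The number of UBE2 genes called against the median was 27 with a pseudocount of 0.1, with the replicate block and without each replicate in turn (27 to 27), and 26 of 28 with a filter on a mean of at least 0.05, with genes of both tables and without UBE2F-SCLY. The ratio is taken within each replicate, so the pairing of RPF and total RNA is already in each value. Among the 15 genes that share under 5% of their CDS 30-mers with another gene, a choice made after seeing the data, 14 were called, which is fewer because fewer genes enter. The median efficiency ranged from 0.986 to 1.05 without each replicate. The number of mRNAs with over 2 times the occupancy in the 3′ section of the CDS went from 13 to 8 when each codon was limited to 10 times the median; no single high codon can then carry a section. Several values changed sign. Without each replicate in turn (all log2), UBE2G1 against the median ranged from -0.025 to 0.0075, with 0.0031 without replicate 2, UBE2E3 minus UBE2E1 from -0.037 to 0.15, with -0.00059 without replicate 1, and UBE2E2 minus UBE2E3 from -0.016 to 0.12, and the log2 ratio of the 5′ to the 3′ section of UBE2D4 went from 0.43 to -0.16 without the first 10 and last 5 codons. That of UBE2E2 went from -0.09 to 0.11 and that of UBE2J2 from -0.02 to 0.06 with the limit on each codon, and that of UBE2K from -0.03 to 0.03 without the first 10 and last 5 codons. Of 56 recomputed differences between paralogs or partners, 48 kept their sign and moved by less than the spread between replicates, 5 moved by more, all with a pseudocount of 0.1, and 3 changed sign. Of 28 5′UTR values, 16 moved by more than that spread with a window of 10 codons. The depth of the efficiency values is unknown, and the 119 reads of UBE2D4 limit its profile.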
